A study of Drosophila melanogaster with 9 samples.

Results

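The subject here is the set of long noncoding RNAs that intermediate neural progenitors (INPs) of the Drosophila larval brain expressed at an appreciable level, with cherub at its head. Members were genes whose FlyBase symbol begins with lncRNA: or asRNA:, without the dosage compensation RNAs roX1 and roX2, and with a mean of at least 5 RPM (a gene's count as a share of all counts on genes, in parts per 1000000) in at least 1 temporal state. Of 2363 such genes among the 16364 genes counted, 137 met this level, and 36 of them carry an asRNA name. They were thus chosen by their measured mean RPM in these libraries, and their levels are given as a description. Just inside the limit, asRNA:CR43481, asRNA:CR45126 and asRNA:CR45137 reached 5.16, 5.12 and 5.02 RPM in their highest state. Just outside it, asRNA:CR45479 and lncRNA:CR44922 reached 4.87 RPM each and lncRNA:CR44775 reached 4.82 RPM.

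INPs descend from type II neuroblasts and pass through D+, Grh+ and Ey+ states, named after the transcription factors Dichaete, Grainyhead and Eyeless, while they produce neurons and glia. Each state was sequenced in 3 libraries of 6000 to 7000 sorted cells from brains of wandering larvae of the last instar reared at 29 °C. All larvae carried erm-GAL4 and UAS-cd8::tdTomato, and the largest cells with the strongest tdTomato and GFP were taken. The sample titles label the INPs of every library wild-type. D+ INPs came from D::GFP larvae with GFP knocked into the D locus, whereas Grh+ and Ey+ INPs came from Grh-GFP and Ey-GFP larvae with the tagged gene as an extra BAC copy. No source says whether the 3 replicates of a state were separate cultures, so p-values measure the spread between these libraries. The deposited D+ data carry another run code than those of the other 6 libraries, which may mark another flow cell, so wherever D+ INPs are compared, state, genotype and run cannot be told apart.

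A long noncoding RNA is transcribed and usually spliced and polyadenylated like a messenger RNA but is not known to be translated. Some act as the RNA itself, some are the precursors from which microRNAs are cut, and for others transcription next to a coding gene may be all that matters. cherub is the member best known in this lineage. It is held at the cortex of the dividing type II neuroblast, passes into the young INP at division, and binds the RNA-binding proteins Staufen and Syncrip, as was shown in tumours that lack brat.

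Counts on genes ranged from 11266164 to 23184025 per library. All 12 INP and neuroblast markers were detected in every library, with pnt lowest at 0.563 to 15.2 RPM, and their sum ranged from 4738 to 6571 RPM. The sum of 8 neuron markers was 228 to 1046 RPM in D+, 429 to 980 RPM in Grh+ and 715 to 3072 RPM in Ey+ libraries, most of it from elav. The 3 ganglion mother cell markers summed to 1706 to 3200 RPM. The 9 glia markers summed to 960 to 2014 RPM, most of it from nrv2 and Eaat1. Hemocyte markers summed to at most 19.4 RPM, and those of trachea, fat body and muscle to at most 29.8 RPM. Ey+ replicate 1 stood apart, with a normalization factor of 0.740 against 0.982 to 1.13 in the other 8 libraries. Many results that rest on it are given with and without it. Bulk RNA cannot tell fewer cells of a kind from less RNA per cell.

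The 137 RNAs were spread over a wide range of levels. In their highest state, 5 exceeded 1000 RPM, 16 exceeded 100 RPM and 68 exceeded 10 RPM, while 69 lay between 5 and 10 RPM. In all 3 states, 79 reached 5 RPM. A further 24 did so in a pair of states, 9 only in D+, 13 only in Grh+ and 12 only in Ey+ INPs. Of the 137, 35 had their highest mean in D+, 44 in Grh+ and 58 in Ey+ INPs. The Ey+ means behind these counts include Ey+ replicate 1. There 52 of the 137 exceeded the mean of the other Ey+ libraries more than 2-fold after normalization. The counts were not made without that library. Of the 2363 genes, 92 had no count in any library.

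Their genes differed in position from the 2224 other annotated genes of the same kinds with a position in the annotation. Of the 137, 43 (31.4%) lay apart from protein-coding genes, against 57.4% of the others. Inside an intron of a coding gene lay 40 (29.2%), against 16.1% of the others. In another 40 the exons overlapped coding exons on the opposite strand, against 23.1% of the others, in 10 on the same strand and in 4 on both. Their exons covered a median of 1357 bases against 647, and 64 (46.7%) had a single exon block against 65.8%. The starts of 33 (24.1%) lay within 1000 bases of a coding start, close to the 26.3% of the others. These shares are descriptions, since longer genes collect more counts and reads were counted without strand. Reads in exons that 2 genes share were set aside by the counting, and 70 of the 137 shared some exon bases and 23 more than 50%.

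Per kilobase of exon, which allows genes to be compared, cherub led with 2387 RPM per kilobase averaged over the 3 states. CR40469, a gene of 214 bases near the tip of the X chromosome, followed closely with 2291. CR34335, of 361 bases in an intron of the cell surface gene DIP-alpha, stood at 1027, and the alphagamma-element at 895. The last lies at a heat shock locus of arm 3R, 7559 bases from Hsp70Ba, and 45.8% of its exon bases coincide with annotated transposable elements, where reads often align to several places and were not counted. CR30009 at 371, CR33938 at 360, CR44024 at 274, CR31386 at 151, CR42862 at 143 and CR45387 at 134 RPM per kilobase completed the leading 10. Hsromega, the nuclear heat shock RNA that organizes the omega speckles, collected many counts but stood at 48.8 because its exons cover 21710 bases. The order of cherub and CR40469 was reversed in D+ INPs, where cherub stood at 2118 and CR40469 at 3175 RPM per kilobase. It was reversed in Grh+ INPs too, where their means before division by exon length were 6997 and 426 RPM. The lead of cherub rested on Ey+ replicate 1. Before division by exon length cherub had 95674 RPM there, against a mean of 5205 RPM in Ey+ replicates 2 and 3.

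**Figure D1:**
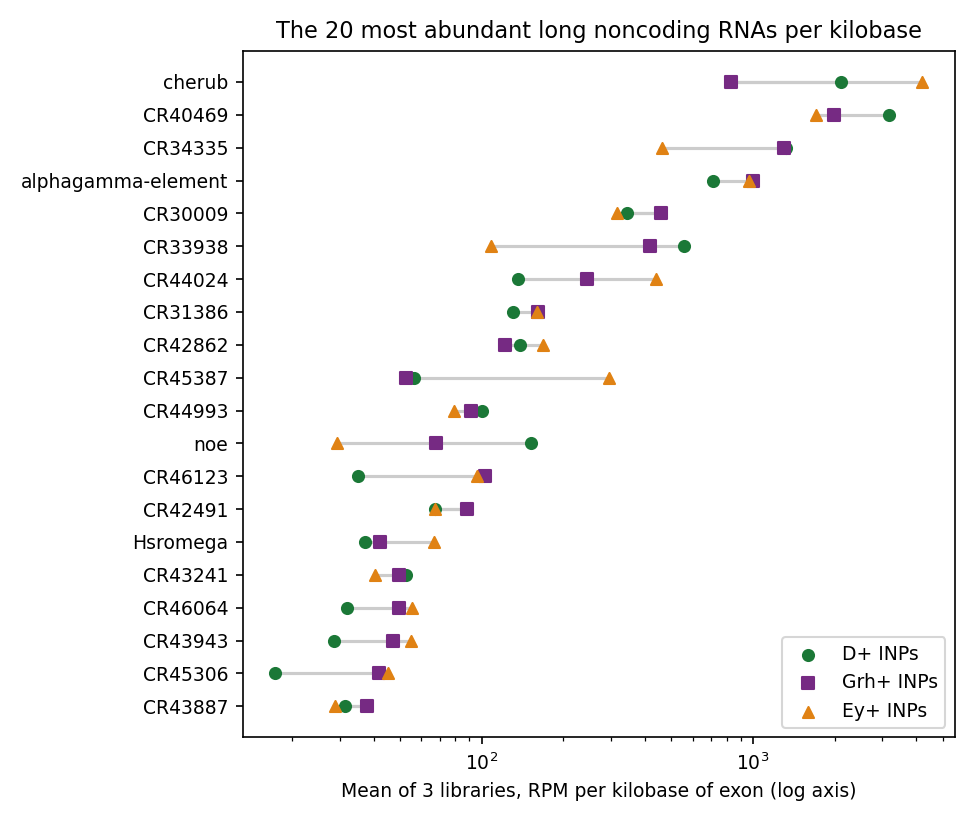
Mean level of the 20 most abundant members in RPM per kilobase of exon (horizontal log axis), with 1 symbol for each state and a grey line joining the states of a gene. cherub and CR40469 lead at 2387 and 2291 on average, and CR45387, noe and CR33938 show wide gaps between Ey+ and D+ INPs.

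cherub (FBgn0262972) lies on the minus strand of arm 3R at positions 11247631 to 11256123 of the Release 6 assembly, with 8398 exon bases, none shared with another gene, and 768 bases from the nearest coding gene CG5214. Its RPM was 10684, 25749 and 16918 in the D+ libraries, 4100, 15340 and 1550 in the Grh+ libraries, and 95674, 7149 and 3262 in the Ey+ libraries. It was the most abundant gene of all in D+ replicates 2 and 3 and in Ey+ replicate 1, and ranked 59 in Grh+ replicate 3. A single gene thus took between 0.155% and 9.57% of the counts on genes, a 61.7-fold range. Within a state the highest library exceeded the lowest 2.41-fold in D+, 9.90-fold in Grh+ and 29.3-fold in Ey+ INPs, so all 3 states overlapped.

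The means were 17784 ± 7570 RPM in D+, 6997 ± 7337 in Grh+ and 35362 ± 52268 in Ey+ INPs (SD, n = 3 each). With p-values from edgeR's quasi-likelihood test, adjusted by Benjamini-Hochberg, the log2 fold change of cherub was -1.51 (SE 1.22, adjusted p = 0.515) in Grh+ against D+ INPs. It was 2.89 (SE 1.28, adjusted p = 0.587) in Ey+ against Grh+ and 1.38 (SE 1.21, adjusted p = 0.498) in Ey+ against D+ INPs in the same test. No difference of cherub between states exceeded the spread between libraries. Without Ey+ replicate 1 the last 2 values were -0.23 and -1.75, in the opposite direction. The mean within-state SD of cherub was 1.69 on the log2 scale, against a median of 0.53 for the 137 RNAs and 0.34 for all genes tested. Among 2219 genes at 100 CPM or more, 0 had a larger one.

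**Figure D2:**
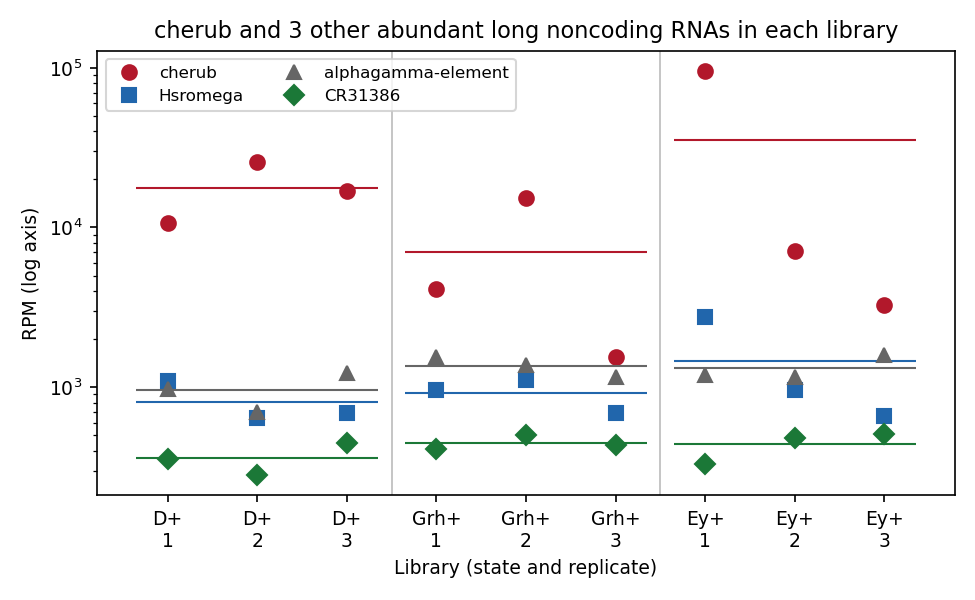
RPM of cherub, Hsromega, the alphagamma-element and CR31386 in each of the 9 libraries (vertical log axis), with a line at the mean of each state. cherub runs from 1550 to 95674 RPM with overlapping states, while CR31386 stays between 281 and 510 RPM.

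The other 15 RNAs over 100 RPM in a state had narrower ranges over the 9 libraries, from 1.81-fold for CR31386 to 14.0-fold for CR44024 and 20.0-fold for CR45388. At lower levels the range of CR45387 was 46.9-fold. CR31386, which lies 13291 bases from cherub on the same strand, had 355, 281 and 447 RPM in D+, 407, 498 and 435 in Grh+, and 332, 482 and 510 in Ey+ libraries. Its adjusted p by edgeR's quasi-likelihood test was 0.242 or more in every comparison, and CG5214 on the other side was likewise even, at 139 to 271 RPM. The alphagamma-element lay between 700 and 1599 RPM in all 9 libraries.

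The genes of proteins that bind or carry cherub, or that cause the tumours in which it was studied, were followed beside it. Syp, which encodes Syncrip, had 1299, 898 and 898 RPM in D+, 534, 1092 and 313 in Grh+, and 6914, 894 and 487 in Ey+ libraries. As for cherub, the highest value was that of Ey+ replicate 1, which exceeded the mean of its 2 partners 13.5-fold for Syp and 24.7-fold for cherub in TMM-scaled CPM. For stau, mira, brat and pros the same ratio was 1.72, 0.900, 2.41 and 1.71. The adjusted p of these 5 genes by edgeR's quasi-likelihood test was 0.0822 or more in all 3 comparisons. Whether cherub and Syp vary together was not tested.

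A member was called when 3 conditions held: an adjusted p under 0.05 by edgeR's quasi-likelihood test over all 10193 genes tested, a log2 fold change beyond 1 in either direction, and a mean above 10 RPM in some state. All 137 passed the expression filter of the test, many of them through the state in which they are high. CR45668 and CR43242 reached 5 RPM in D+ only, CR45916 in Grh+ only, and CR46095 and CR44082 in Ey+ only INPs. asRNA:CR45214 did so in Grh+ and Ey+ but not in D+ INPs. For these the choice by level favours a difference from the other states, and their values below are given as a description. In Grh+ against D+ INPs, 4 of 137 were called, where 3.16% of all genes were. Of these, 1 was higher in Grh+ INPs, where 1.73% of all genes were, and 3 were lower, where 1.43% were. In Ey+ against D+ INPs, 7 were called against 3.95% of all genes, 2 of them higher and 5 lower, where 1.65% and 2.31% of all genes were. In Ey+ against Grh+ INPs 0 were called by edgeR against 0.235% of all genes, although 25 (18.2%) had an unadjusted p under 0.05 against 8.43% of all genes. DESeq2 called 4, for which the share of all genes is not given here. The RPM of the libraries did not overlap between Grh+ and D+ INPs in 36 members, against 29.7% of all genes, between Ey+ and Grh+ INPs in 27 against 23.2%, and between Ey+ and D+ INPs in 36 against 24.5%. The median log2 fold change of the members was 0.05, 0.28 and 0.50 in Grh+ against D+, Ey+ against Grh+ and Ey+ against D+ INPs, against 0.00, -0.03 and -0.02 over all genes.

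These counts rested on few libraries. Without any one of the Grh+ libraries 0 members were called in Grh+ against D+ INPs. In that comparison 1 was called without D+ replicate 3, 2 without Ey+ replicate 2 or 3, and 7 without D+ replicate 1. In Ey+ against D+ INPs 17 were called without D+ replicate 1, 3 when Ey+ replicate 1 was left out and 4 when Ey+ replicate 2 was. The shares of all genes called in these fits are not given here. The numbers thus describe how firm the calls are, not a trait of the members.

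noe, a noncoding RNA named for its expression in the embryonic nervous system, fell over the states. It had 188, 101 and 204 RPM in D+, 72.0, 87.8 and 59.9 in Grh+, and 31.4, 28.4 and 34.6 in Ey+ libraries, and no 2 states overlapped. Its log2 fold change was -2.24 (SE 0.29, adjusted p = 0.00362, edgeR's quasi-likelihood test) in Ey+ against D+ INPs, and it passed under all 19 alternative ways of processing that were tried. In Grh+ against D+ INPs it was -1.32 (SE 0.28, adjusted p = 0.0281, edgeR) and passed under 13 of 19, with adjusted p up to 0.116. The call was lost without D+ replicate 3 or any one Grh+ library. noe lies on the same strand in an intron of blot, a gene of the neurotransmitter transporter family, which was not lower but higher in Grh+ INPs. blot had 59.4, 44.0 and 44.8 RPM in D+ and 107, 101 and 109 RPM in Grh+ libraries (log2 fold change 0.95, SE 0.16, adjusted p = 0.0128, edgeR).

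CR33938 and CR34335 were lower in the last state. CR33938, of 505 exon bases on arm 3R near the cuticle gene Ccp84Ab, had 204, 339 and 298 RPM in D+, 185, 246 and 200 in Grh+, and 25.3, 49.5 and 88.7 in Ey+ libraries. Each Ey+ library lay below every other library. In Ey+ against D+ INPs the log2 fold change of CR33938 was -2.31 (SE 0.34, adjusted p = 0.00600, edgeR's quasi-likelihood test), and it passed under all 19 alternatives. Against Grh+ INPs it was -1.74 (SE 0.33, adjusted p = 0.0845, edgeR), past the threshold under 5 of 19, among them the set without Ey+ replicate 3. Ccp84Ab had at most 0.604 RPM in any library.

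CR34335 had 291, 583 and 557 RPM in D+, 471, 451 and 483 in Grh+, and 132, 171 and 198 in Ey+ libraries, again with all Ey+ libraries lowest. The test of CR34335 gave a log2 fold change of -1.40 (SE 0.26, adjusted p = 0.0137, edgeR) in Ey+ against D+ INPs and -1.22 (SE 0.25, adjusted p = 0.101, edgeR) in Ey+ against Grh+ INPs. The first passed under 16 of 19 alternatives but not without Ey+ replicate 1 or 2, where adjusted p rose to at most 0.0934. The second passed without D+ replicate 1. DIP-alpha, in whose intron it lies on the same strand, had 115.3, 55.0 and 36.9 RPM in the Ey+ and 49.8, 23.5 and 42.6 RPM in the D+ libraries (log2 fold change 1.09, SE 0.49, adjusted p = 0.193, edgeR).

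**Figure D3:**
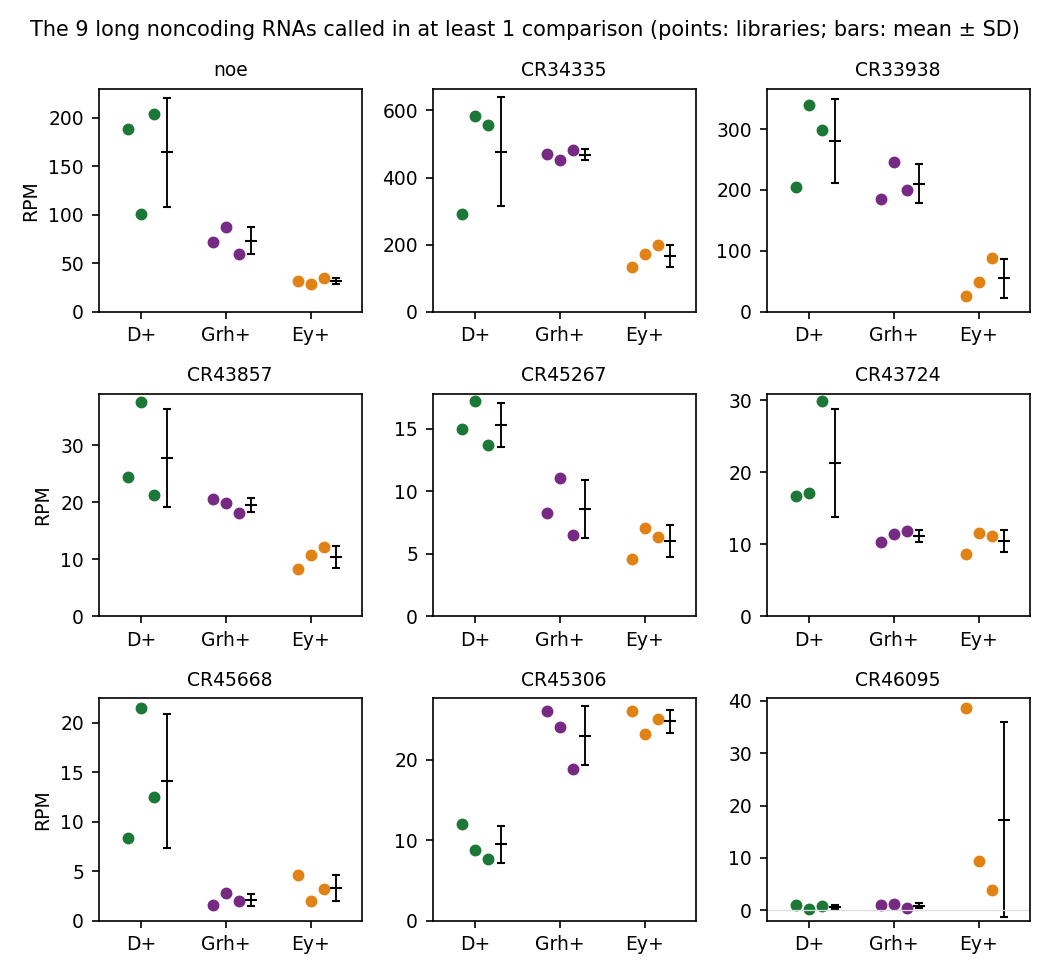
RPM of the 9 members called in at least 1 comparison, with 1 point for each library and the mean ± SD of the state beside it; each panel has its own linear axis. noe, CR34335 and CR33938 are lowest in all Ey+ libraries, CR45306 is lowest in the D+ libraries at 7.62 to 12.1 RPM, and the Ey+ mean of CR46095 rests mainly on 1 library at 38.5 RPM.

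A pair of called RNAs were neighbours of the homeobox gene Optix on arm 2R. CR45267 and CR43724 lie 2333 bases apart on opposite strands, 4687 and 1347 bases from Optix. CR45267 had 15.01, 17.2 and 13.7 RPM in D+, 8.25, 11.04 and 6.46 in Grh+, and 4.59, 7.03 and 6.36 in Ey+ libraries. CR43724 had 16.7, 17.1 and 29.9, then 10.3, 11.4 and 11.9, then 8.64, 11.5 and 11.2 RPM. In both, every D+ library exceeded every Grh+ and Ey+ library, whereas Grh+ and Ey+ libraries overlapped. CR45267 was called in Ey+ against D+ INPs (log2 fold change -1.23, SE 0.27, adjusted p = 0.0287, edgeR). CR43724 was called in Grh+ against D+ INPs (-1.08, SE 0.27, adjusted p = 0.0448, edgeR). The call of CR45267 was kept under 11 of 19 alternatives, and was lost without Grh+ replicate 1 or 3 or any one Ey+ library. That of CR43724 was kept under 7 of 19, and was lost without D+ replicate 3 or any one Grh+ or Ey+ library. Optix had 463, 578 and 450 RPM in D+, 272, 298 and 287 in Grh+, and 286, 400 and 436 in Ey+ libraries. It was lower in Grh+ than in D+ INPs (log2 fold change -0.95, SE 0.17, adjusted p = 0.0138, edgeR), but the value of Ey+ against D+ INPs was -0.30 (SE 0.17, adjusted p = 0.283, edgeR).

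CR45668 showed the largest called decrease after the D+ state. It reached 5 RPM, and the 10 RPM that a call needs, in D+ INPs only, which favours a decrease. It had 8.32, 21.5 and 12.5 RPM in D+, 1.60, 2.75 and 1.95 in Grh+, and 4.64, 2.02 and 3.15 in Ey+ libraries, and the D+ libraries overlapped none of the others. In Grh+ against D+ INPs its log2 fold change was -2.89 (SE 0.53, adjusted p = 0.0163, edgeR's quasi-likelihood test), lost without any one Grh+ library, with adjusted p up to 0.0912. In Ey+ against D+ INPs it was -1.90 (SE 0.51, adjusted p = 0.0515, edgeR), and it passed without D+ replicate 1. Its exons share 30.1% of their bases with other genes, and CG16721, which it overlaps on the opposite strand, gave log2 fold changes of 0.04 and 0.37 in these comparisons (adjusted p = 0.960 and 0.516, edgeR).

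CR45306 rose. It lies apart from coding genes on arm 2L, with 549 exon bases, and had 12.1, 8.85 and 7.62 RPM in D+, 26.1, 24.1 and 18.9 in Grh+, and 26.1, 23.3 and 25.1 in Ey+ libraries. The D+ libraries lay below all others. For CR45306 the log2 fold change was 1.12 (SE 0.25, adjusted p = 0.0336, edgeR) in Grh+ against D+ and 1.54 (SE 0.26, adjusted p = 0.00960, edgeR) in Ey+ against D+ INPs. The first passed under 10 of 19 alternatives, and was lost when D+ replicate 2 or 3, Ey+ replicate 2 or 3 or any one Grh+ library was left out. The second passed under 18 of 19. Its nearest coding gene CG9316 had -0.32 and 0.60 (adjusted p = 0.843 and 0.622, edgeR).

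CR46095 and its host gene were both higher in Ey+ than in D+ INPs. It lies on the same strand in an intron of mld, which encodes a zinc finger protein needed for ecdysone synthesis in the ring gland. CR46095 had 0.949, 0.256 and 0.891 RPM in D+, 0.976, 1.25 and 0.337 in Grh+, and 38.5, 9.45 and 3.84 in Ey+ libraries. Its choice through the Ey+ mean alone favours a rise. The log2 fold change of CR46095 was 4.80 in Ey+ against Grh+ INPs (SE 1.02, adjusted p = 0.107, edgeR). In Ey+ against D+ INPs it was 4.93 (SE 1.02, adjusted p = 0.0224, edgeR). Without Ey+ replicate 1 it was 3.27 (adjusted p = 0.0984, edgeR). That call was lost when D+ replicate 2 or 3 or Ey+ replicate 1 was left out. mld had 59.6, 19.9 and 52.3 RPM in D+, 114, 124 and 92.2 in Grh+, and 1134, 1135 and 816 in Ey+ libraries (log2 fold change 4.71, SE 0.45, adjusted p = 0.000642 in Ey+ against D+, edgeR). Counting without strand or splicing state cannot tell a separate RNA in an intron from unspliced RNA of the host.

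A similar pair lay below the limit of 10 RPM. CR44082, in an intron of RapGAP1 on the opposite strand, had 0 counts in all 3 D+ libraries, 2.04, 1.83 and 0.673 RPM in Grh+ and 9.79, 3.94 and 2.24 RPM in Ey+ libraries. Against 3 counts per library as the floor, its mean was at least 10.5-fold higher in Grh+ and at least 37.0-fold higher in Ey+ than in D+ INPs (adjusted p = 0.0211 and 0.00837, edgeR). Without Ey+ replicate 1 the second bound was 21.5-fold. The first lost its call without D+ replicate 3 and without Grh+ replicate 1 or 2. RapGAP1, which encodes a GTPase-activating protein of Rap1, went from 24.7, 10.6 and 35.2 RPM in D+ to 1004, 473 and 279 RPM in Ey+ libraries (log2 fold change 4.89, SE 0.68, adjusted p = 0.00434, edgeR).

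asRNA:CR45214 differed most plainly between D+ and the other INPs. It had 0 counts in all 3 D+ libraries, 7.37, 9.16 and 9.83 RPM in Grh+ and 6.34, 7.82 and 7.16 RPM in Ey+ libraries. Its mean was at least 61.1-fold higher in Grh+ and at least 49.4-fold higher in Ey+ than in D+ INPs, against the floor of 3 counts per library (adjusted p = 0.000552 and 0.000354, edgeR's quasi-likelihood test). Both passed under all 18 alternatives that kept the gene. It lies antisense to RIOK2, which encodes a kinase of ribosome assembly, and 85.4% of its exon bases are shared, so the counts come from the remaining stretch. RIOK2 had 27.4, 37.5 and 20.5 RPM in D+, 19.7, 18.1 and 22.2 in Grh+, and 12.5, 19.0 and 18.7 in Ey+ libraries (log2 fold change -0.66 in Grh+ against D+, SE 0.23, adjusted p = 0.118, edgeR). D+ larvae differed from the others in genotype and their libraries in run code, and the part of either in this on and off pattern was not tested.

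Of the 137 RNAs, 15 contain an annotated microRNA or small nucleolar RNA, against 23 of the other 2226 genes. Of the 15 hosts, 2 had an adjusted p under 0.05 by edgeR's quasi-likelihood test in a comparison, 1 of 15 in Grh+ against D+ (6.23% of all genes) and 1 of 15 in Ey+ against D+ INPs (7.95%). In Ey+ against Grh+ INPs 0 of 15 did by edgeR (0.235% of all genes). There 5 of 15 had an unadjusted p under 0.05, against 18.2% of the 137 and 8.43% of all genes. CR43857, from which mir-275 is made, fell. It had 24.5, 37.6 and 21.3 RPM in D+, 20.6, 19.9 and 18.1 in Grh+, and 8.36, 10.7 and 12.2 in Ey+ libraries, without overlap between any 2 states. In Ey+ against D+ INPs it had a log2 fold change of -1.30 (SE 0.23, adjusted p = 0.0129, edgeR), lost without Ey+ replicate 1 or 2.

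CR45916, the precursor of mir-9a, a microRNA known for its role in sense organ formation, had its highest level in the middle state. It had 0.561, 0.102 and 0 RPM in D+, 6.39, 10.3 and 3.30 in Grh+, and 0.827, 0.836 and 1.43 in Ey+ libraries, and the Grh+ libraries lay above all others. CR45916 had a log2 fold change of 4.69 (SE 1.06, adjusted p = 0.0336, edgeR) in Grh+ against D+ and -2.42 (SE 0.94, adjusted p = 0.50, edgeR) in Ey+ against Grh+ INPs. The first value passed under 10 of 18 alternatives, and was lost without D+ replicate 2, any one Grh+ library or Ey+ replicate 2 or 3.

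The host of mir-124, a microRNA abundant in nervous systems, was CR45919 with 180, 58.0 and 131 RPM in D+, 198, 185 and 184 in Grh+, and 254, 268 and 199 in Ey+ libraries. A log2 fold change of 1.13 in Ey+ against D+ INPs did not pass (SE 0.37, adjusted p = 0.0892, edgeR). CR31044, which contains mir-279 and mir-996, stayed between 64.3 and 121 RPM in all 9 libraries. CR43650, the host of mir-8, and CR43314, the host of mir-bft, each had their highest value in Grh+ replicate 2, at 20.5 and 18.6 RPM against at most 9.29 and 4.49 RPM elsewhere. That library also had the highest sum of hemocyte and of trachea, fat body and muscle markers, 19.4 and 29.8 RPM, whose part in these values was not tested.

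For the 13 RNAs that reached 5 RPM in Grh+ INPs only, the median log2 fold change in Ey+ against Grh+ INPs was -0.60. Their choice by level in Grh+ and not in Ey+ INPs favours a negative value, so it is a description. By edgeR 0 of 13 passed the adjusted p, and 4 had an unadjusted p under 0.05, against 8.43% of all genes. The values of asRNA:CR45137 and marge were the lowest of the 13, at -2.96 and -2.67. asRNA:CR45137 overlaps exons of sca on the opposite strand, which encodes the secreted protein Scabrous, and had 2.29, 1.33 and 3.91 RPM in D+, 3.73, 8.29 and 3.03 in Grh+, and 0.459, 0.590 and 0.516 in Ey+ libraries. All Ey+ libraries lay below the rest, but the adjusted p was 0.107 against Grh+ and 0.0648 against D+ INPs by edgeR. marge had 7.28, 10.1 and 4.44 RPM in the Grh+ libraries and between 0.409 and 2.62 RPM in the other 6 (adjusted p = 0.122 against D+ and 0.231 for Ey+ against Grh+, edgeR). Both were named after their values were seen.

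CR46064 and CR43242 passed the adjusted p in Ey+ against D+ INPs but not the limits of fold change and of level. CR46064 had 74.0, 73.1 and 107 RPM in D+ and 142, 144 and 155 RPM in Ey+ libraries (log2 fold change 0.94, SE 0.21, adjusted p = 0.0287, edgeR). CR43242 had 5.48, 10.1 and 5.30 RPM in D+ and 1.29, 2.02 and 2.29 RPM in Ey+ libraries (-1.80, SE 0.46, adjusted p = 0.0441, edgeR). Its choice through the D+ mean alone favours a fall. In both genes the D+ and Ey+ libraries did not overlap. Of 19 alternatives, 9 kept the call of CR46064 and 6 that of CR43242. Each was lost without D+ replicate 2, without Grh+ replicate 1 or 3 and without any one Ey+ library, and CR43242 also without D+ replicate 3 or Grh+ replicate 2.

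Over the set, 1 library carried most of the upward shift in Ey+ INPs. In Ey+ replicate 1, 52 of the 137 RNAs (38.0%) exceeded the mean of Ey+ replicates 2 and 3 more than 2-fold in TMM-scaled CPM, against 11.3% of all genes, and the median ratio was 1.47 against 0.970. Members were chosen by mean levels that include this library and all genes were not, which favours such an excess. In D+ replicate 2 the shift was the reverse, with 50 (36.5%) under 0.5 of the mean of the other D+ libraries against 21.9% of all genes. Without Ey+ replicate 1, the median log2 fold change of the members fell from 0.28 to 0.02 in Ey+ against Grh+ INPs and from 0.50 to 0.14 in Ey+ against D+ INPs, against -0.04 and -0.09 over all genes. In Ey+ replicate 1 the sum of neuron markers was 3072 RPM, of which elav gave 2704 RPM, against 1251 and 715 RPM in its partners. The neuronal gene fne had 300 RPM there against 73.5 and 42.4 RPM. The nSyb, Syt1, brp, Rbp9, Syn and nrv3 genes of mature neurons had 5.19 to 15.9 RPM in that library. There brp had 15.9 RPM against 4.62 and 2.52 in its partners, Syt1 14.9 against 5.12 and 3.55, and nrv3 13.3 against 4.57 and 1.15. Syn had 5.19 RPM against 3.54 and 1.83, nSyb 11.1 against 8.22 and 7.05, and Rbp9 7.26 against 7.58 and 7.28. Each of these genes was higher in Grh+ replicate 2, at 10.6 to 29.3 RPM. Alignments to more than 1 place numbered 0.713 per count on genes in Ey+ replicate 1, against 0.455 and 0.351 in its partners. The part of these differences between libraries in the shift was not tested.

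**Figure D4:**
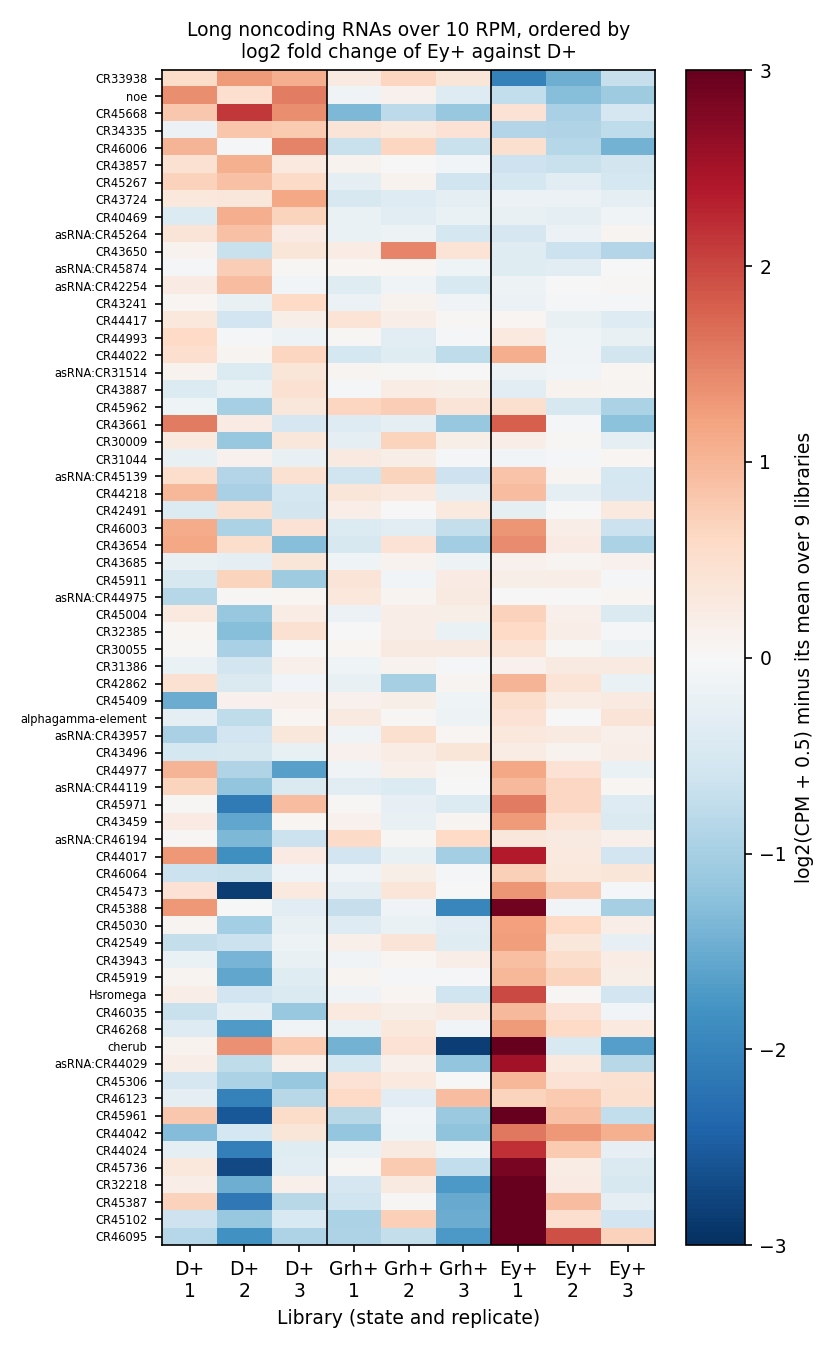
The 68 members over 10 RPM (rows, ordered by their log2 fold change in Ey+ against D+ INPs, which fixes the trend from top to bottom) in the 9 libraries (columns). Colour is log2(CPM + 0.5) minus its mean over all libraries, limited to 3 on either side. Ey+ replicate 1 is high and D+ replicate 2 low in many rows of the lower part.

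The excess in Ey+ replicate 1 differed with position. Of the 40 members inside introns, 22 (55.0%) exceeded 2-fold, with a median ratio of 2.34. Among those apart from coding genes it was 14 of 43 (32.6%), and among those with exons overlapping coding exons on the opposite strand 12 of 40 (30.0%). By exon length, 42.9% of the members under 1000 bases, 34.1% of those from 1000 to 2000, 30.0% of those from 2000 to 5000 and 47.1% of the longer ones exceeded 2-fold. Of all other genes it was 11.5%, 5.28%, 7.78% and 31.04% in these bins. In each bin the share of members was above that of other genes. The choice by mean levels that include Ey+ replicate 1 applies to the members alone, so these shares are descriptions.

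The coding gene around or across from a member often shared the excess. Pairs were counted only where the coding gene was tested, and without asRNA:CR45214 and CR44082. This left 38 pairs in introns, 41 with overlapping exons and 36 of members that lie apart. Of 21 members in introns that exceeded 2-fold, 13 had a host gene that did so too, against 4 of the 17 that did not exceed it. This held for hosts on the opposite strand, with 12 of 17 against 2 of 12, but not for those on the same strand, with 1 of 4 against 2 of 5. With overlapping exons it was 9 of 14 against 3 of 27, and with the nearest coding gene of members that lie apart 2 of 12 against 2 of 24. CR43855, in an intron of the axon guidance gene Sema1a, had 20.8, 3.15 and 1.43 RPM in the Ey+ libraries, and Sema1a had 837, 143 and 73.0 RPM. asRNA:CR44029, across from unc-13, which encodes a synaptic vesicle priming protein, had 201, 56.3 and 26.6 RPM, and unc-13 had 1142, 228 and 113 RPM. CR45102, which lies 184 bases from Mnt, a transcription factor of the Myc network, had 135, 15.5 and 7.28 RPM, and Mnt had 138, 21.0 and 11.4 RPM. The ratio of Ey+ replicate 1 to its partners was 10.2 for CR43855 and 10.4 for Sema1a, 6.45 for asRNA:CR44029 and 9.01 for unc-13, and 15.3 for CR45102 and 11.2 for Mnt. By contrast, the neighbours of cherub did not share its 24.7-fold ratio, with 1.00 for CG5214 and 0.908 for CR31386.

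**Figure D5:**
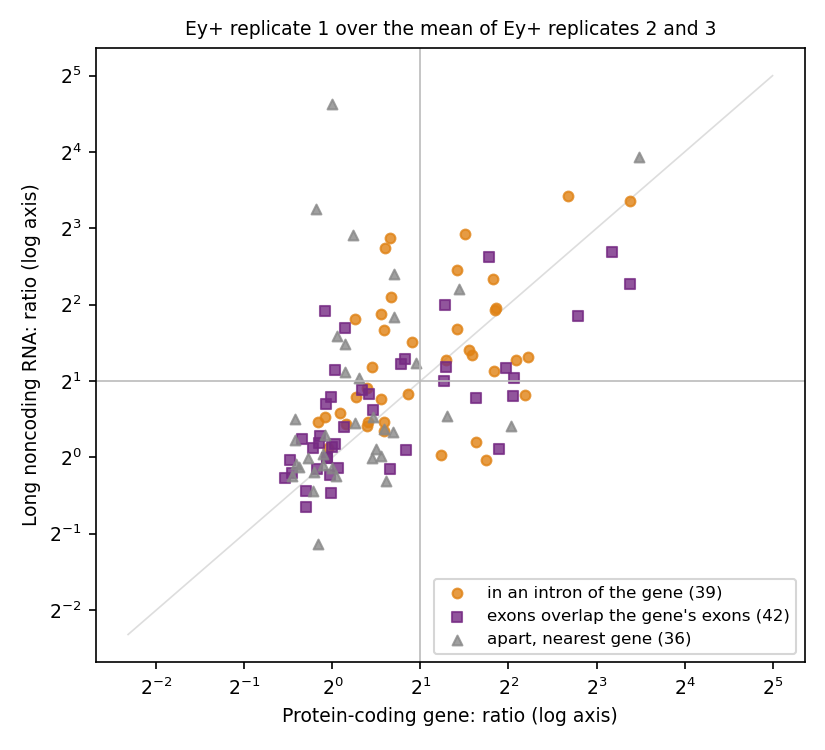
Ratio of Ey+ replicate 1 to the mean of Ey+ replicates 2 and 3 in TMM-scaled CPM for each member (vertical log axis) and for the coding gene it lies in, overlaps or lies nearest to (horizontal log axis). Grey lines mark a ratio of 2 and equal ratios. Points scatter widely around the line of equal ratios. Without asRNA:CR45214 and CR44082, the log2 ratios correlated at 0.47 for introns, 0.70 for overlapping exons and 0.41 for members that lie apart. cherub, the highest triangle at 24.7, stands over a coding gene at 1.00.

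Hsromega and CR45387 show how far a mean of 3 libraries can rest on 1 of them. Hsromega had 1091, 638 and 690 RPM in D+, 957, 1107 and 693 in Grh+, and 2752, 953 and 656 in Ey+ libraries. Its log2 fold change was 1.13 (SE 0.57, adjusted p = 0.233, edgeR) in Ey+ against D+ INPs, and its states overlapped. Without Ey+ replicate 1 it was 0.023. CR45387, of 306 exon bases within the span of CR45388, the host of mir-315, had 211, 40.6 and 18.3 RPM in Ey+ and 4.50 to 35.3 RPM in the other libraries (log2 fold change 2.73 in Ey+ against D+, SE 1.03, adjusted p = 0.128, edgeR). Without Ey+ replicate 1 that of CR45387 was 0.81. CR44024 on chromosome 4 had 488, 143 and 454 RPM in D+, 561, 801 and 593 in Grh+, and 1993, 992 and 514 in Ey+ libraries. Its log2 fold change of 1.95 in Ey+ against D+ INPs (SE 0.61, adjusted p = 0.0786, edgeR) passed only by DESeq2 and without Ey+ replicate 3, and was 1.09 without Ey+ replicate 1.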

How the data were processed

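RNA was measured by oligo-dT primed DigiTag sequencing with molecular tags. Per the paper's methods, ribosomal reads were removed with BWA 0.7.12, the rest aligned with TopHat2 2.1.1, small RNA genes and pseudogenes masked with bedtools 2.26.0 and reads counted without strand on FlyBase r6.12 genes with HTSeq 0.6.1 in intersection-nonempty mode. Whether marked duplicates were removed is not given in the sources used here. As deposited by the authors, each file holds raw whole-number counts per gene. The 5 summary lines, 34.7% to 53.2% of each library, were left out. No 2 libraries of the same state agreed within sampling noise.

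RPM used counts on genes. Comparisons used edgeR 4.0.16 (R 4.3.3, limma 3.58.1), TMM, its expression filter, 1 model over 9 libraries and Benjamini-Hochberg adjustment over all genes tested. On simulated data, 191, 189 and 192 of 200 genes changed by 2 (log2) were recovered in Grh+ against D+, Ey+ against Grh+ and Ey+ against D+ INPs. False calls numbered 4, 10 and 8. The simulated counts were independent draws with the fitted spread of each gene, and no simulated library stood apart as Ey+ replicate 1 does. They check the procedure and do not measure its power in the real libraries. Alternatives were other size factors, filters, DESeq2 1.42.0, 6 libraries alone, a replicate block and each library left out. Leaving out cherub and removing each library's trend on exon length were added after seeing the data. Symbols covered 99.0% of genes; genes were placed with the BDGP6.54 annotation of the same assembly, which also gave exon lengths.

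The members, lists and tests were chosen with earlier results of these data known. Named were cherub, RNAs of known function, the 10 highest per kilobase, those called or with an adjusted p under 0.05, those at the level limit, and the coding gene at each; others were named after their values were seen. Sequences were not analysed here.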

Additional observations from a re-analysis of the deposited data

How the results depend on the processing

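The number of members called in Grh+ against D+ INPs was 4. It was 2 without an expression filter, 1 with the 6 libraries of these states alone, and 7 with the adjusted p alone, which 6.23% of all genes passed. In Ey+ against Grh+ INPs, where it was 0, it was 3 with library size only, 2 without a filter, 1 with at least 10 counts in every library, 4 with DESeq2, 2 with the 6 libraries alone and 2 after each library's trend on exon length was taken off. In Ey+ against D+ INPs, where it was 7, it was 18 with DESeq2, 2 with the 6 libraries alone and 11 with the adjusted p alone, which 7.95% of all genes passed. With 1 library left out, the numbers ranged from 0 to 7, from 0 to 1 and from 3 to 17. The cause of these changes was not tested, beyond the smaller number of libraries or genes in some fits. For the other fits the shares of all genes called are not given here, so these numbers are no trait of the members. Leaving cherub out of the counts left 4, 0 and 7 calls, of the same genes.

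Of 1296 alternative fold changes of named members, 1148 kept direction and side of the threshold, 84 no longer passed, 29 newly passed and 35 turned. Those 35 belong to 16 fold changes of 11 members, and 0 of them passed the adjusted p. With 1 library left out, cherub ranged from -0.23 to 4.12 in Ey+ against Grh+ and from -1.75 to 1.93 in Ey+ against D+ INPs, each lowest without Ey+ replicate 1. In Ey+ against Grh+ INPs Hsromega ranged from -0.038 to 1.497, CR40469 from -0.038 to 0.10 and asRNA:CR45214 from -0.11 to 0.11, and CR30009 ranged from -0.31 to 0.27 in Ey+ against D+ INPs. In Grh+ against D+ INPs Hsromega ranged from -0.11 to 0.32, CR34335 from -0.42 to 0.0085, CR30009 from -0.081 to 0.49, CR45387 from -0.72 to 0.82 and CR46095 from -0.25 to 0.49. With library size only, the values in Ey+ against Grh+ INPs turned to -0.0513 for the alphagamma-element, -0.22 for CR40469, -0.0203 for CR31386 and -0.10 for CR43724, and to -0.12 for CR30009 in Ey+ against D+ INPs. After the trend on exon length was taken off they turned in Grh+ against D+ INPs to -0.38 for Hsromega, -0.0191 for CR30009 and -0.14 for CR31386, in Ey+ against Grh+ INPs to -0.0963 for CR40469 and 0.11 for asRNA:CR45214, and in Ey+ against D+ INPs to -0.0702 for Hsromega and -0.0819 for CR30009. CR40469 also turned to -0.0568 with upper-quartile factors and -0.0143 with at least 10 counts in every library, Hsromega to -0.00381 in Grh+ against D+ INPs with the 6 libraries alone, and CR45387 there to 0.18 with the replicate block. Scaling by library size only moved the median of all genes to -0.29 in Ey+ against Grh+ and -0.14 in Ey+ against D+ INPs, and that of the members to 0.01 and 0.29.

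With the replicate number as a block, 2, 0 and 7 members were called. Deviations of same-numbered libraries correlated between -0.31 and 0.52, with 0.52 for replicate 3 of Grh+ and Ey+ and 0.44 for replicate 1 of D+ and Ey+ INPs. These values do not decide whether same-numbered libraries share more than a number.

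Low counts limit the members between 5 and 10 RPM, and 3 libraries per state allow no exact two-sided permutation p under 0.1.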
